A study of Mus musculus with 1152 samples.

Results

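The 10 genes followed in mouse microglia take up, carry, esterify, oxidise and export lipid and cholesterol: Lpl, Lrp1, Npc1, Npc2, Fabp5, Soat1, Plin2, Ch25h, Abca1 and Abcg1. They were chosen by name for these roles, with earlier results of these data known, and all 10 are among the 48587 genes of the count table. Microglia are the resident macrophages of the brain. They had been sorted as single cells into wells with antibodies to CD11b, CD45, Ly6C, Ly6G and CD206 and sequenced with Smart-seq2, which reads whole transcripts and carries no molecular identifiers. The 6 groups came from 3 brain regions of 2 genotypes. Wild-type (WT) C57BL/6J mice gave cortex, hippocampus and cerebellum from 4 mice each, and 5xFAD mice gave them from 4, 3 and 3. 5xFAD mice carry human transgenes for mutant amyloid precursor protein and presenilin under a neuronal promoter and form amyloid plaques, so the microglia themselves are not the cells that the transgenes target. The labels give C57BL/6J as the strain of both genotypes and no age or sex. WT cortex and WT hippocampus shared a plate, as did WT cerebellum with 5xFAD cortex, and 5xFAD hippocampus with 5xFAD cerebellum. No region had both genotypes on 1 plate, and within a region these cannot be told apart.

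Macrophages of the brain take in lipoproteins, myelin and cell debris, and the cholesterol they cannot break down has to be moved out of the lysosome, stored or exported. Lipoprotein lipase, encoded by Lpl, releases fatty acids from lipoproteins, and LRP1 is a large receptor that internalises ApoE-containing particles. NPC2 and NPC1 hand free cholesterol out of the lysosome, SOAT1 esterifies it, perilipin 2 (Plin2) coats the droplets that store the esters, and FABP5 carries fatty acids. CH25H converts cholesterol to 25-hydroxycholesterol, and ABCA1 and ABCG1 load cholesterol onto lipoproteins outside the cell.

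After filtering, 1041 of 1140 wells were kept, 154 to 193 per group. The mouse was the replicate. Adding up the kept cells by mouse and region left 22 totals, with 35 to 72 cells and 5696201 to 26669220 reads apiece. Levels are CPM of these sums, scaled by TMM library sizes. All 8 microglial marker genes were detected in each group, with a summed level of 34320 to 37590 CPM in WT cerebellum, 37710 to 40400 CPM in 5xFAD cerebellum and 40510 to 54140 CPM in the other 4 groups. Wells with at least 3 markers at 50 CPM or more were counted for border macrophages, the macrophages of meninges and vessels. There were 12 in WT cerebellum, 12 in 5xFAD cerebellum, and 1 each in WT cortex and WT hippocampus. In 5xFAD cerebellum mouse 3, 5 wells had neutrophil markers, and 3 of these also had monocyte markers. In 12 blank wells no member had more than 1 read in a well. Soat1 had a read in 2 of them, Lrp1, Npc2, Plin2 and Abcg1 in 1 each, and the other 5 in 0. Replicates are mice, and p-values rest on the spread between mice within groups, estimated in 1 fit over all groups. That fit takes the regions of a mouse as independent sums. In sums of many cells, fewer cells with a transcript and less transcript per cell cannot be told apart, so the share of cells with a read is given beside each level.

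Promoter sequence from RefSeq (GRCm38.p6) was available for 6 members, Abca1, Ch25h, Lrp1, Npc2, Plin2 and Soat1. Those of Ch25h, Plin2 and Npc2 are shown because these genes were higher in 5xFAD hippocampus, and that of Abca1 because it alone held CACGTG, the E-box letters bound by lysosomal regulators of the TFEB family. Each ends just before the annotated gene and is written 5′ to 3′ on the strand of the gene, the minus strand in all 4, with CACGTG and TATAAA in capitals.
Ch25h, chr19:34475165-34475398: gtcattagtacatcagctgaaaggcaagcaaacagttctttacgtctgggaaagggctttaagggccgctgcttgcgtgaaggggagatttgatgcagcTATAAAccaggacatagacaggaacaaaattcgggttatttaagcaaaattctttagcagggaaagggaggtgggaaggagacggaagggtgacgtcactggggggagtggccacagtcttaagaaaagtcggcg
Plin2, chr4:86670061-86670309: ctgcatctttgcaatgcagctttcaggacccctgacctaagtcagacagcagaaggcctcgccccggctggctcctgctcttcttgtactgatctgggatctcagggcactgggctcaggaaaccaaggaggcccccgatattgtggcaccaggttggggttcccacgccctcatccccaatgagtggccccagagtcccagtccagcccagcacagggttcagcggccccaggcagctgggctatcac
Npc2, chr12:84773153-84773362: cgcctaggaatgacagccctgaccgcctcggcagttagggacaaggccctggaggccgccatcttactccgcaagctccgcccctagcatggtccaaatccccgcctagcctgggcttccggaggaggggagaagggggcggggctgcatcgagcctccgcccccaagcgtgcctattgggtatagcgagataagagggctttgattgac
Abca1, chr4:53159896-53160145: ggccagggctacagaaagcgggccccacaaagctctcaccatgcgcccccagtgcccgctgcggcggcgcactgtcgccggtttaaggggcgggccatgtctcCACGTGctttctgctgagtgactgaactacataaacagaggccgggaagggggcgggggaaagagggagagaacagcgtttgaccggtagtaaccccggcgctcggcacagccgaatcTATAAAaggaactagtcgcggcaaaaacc

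In all, 6 sets of letters were searched on both strands of the 250 bases before each RefSeq start. CACGTG, which stood 147 bases before the start of Abca1, is in 6.02% of the 32851 promoters of the table. TATAAA, added after the sequences had been seen, stood 151 bases before the start of Ch25h and 29 before that of Abca1 and is in 12.4% of all promoters. GAGGAA (23.3% of all promoters), TGACTCA (4.46%) and direct repeats of AGGTCA with a gap of 1 (0.0335%) or 4 (0.0152%) were in none of the 6 windows. Only exact copies of AGGTCA were searched. Repeats this rare would be missing from nearly any 6 promoters, so their absence says nothing about these genes or about inexact repeats. The 3 promoters of genes that rose in hippocampus shared none of the 6. G and C made up 48.7% of the printed Ch25h sequence and 61.4% to 63.8% of those of Plin2, Npc2 and Abca1. Over all promoters the median was 52.4%.

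Per kilobase of exon (union of the GENCODE M21 exons), Npc2 had the highest level of the 10 in each of the 6 groups, from 94.3 ± 13.97 CPM per kb (SD, n = 4) in WT hippocampus to 266 ± 32.8 in 5xFAD hippocampus (SD, n = 3). Abcg1, Abca1 and Lrp1 followed in WT cortex, at 40.8 ± 10.0, 31.7 ± 8.44 and 23.5 ± 2.42 CPM per kb (SD, n = 4), and neighbours in this order differed by less than their summed SD. Lpl, Ch25h and Fabp5 were the lowest 3 there, at 0.178, 0.0931 and 0.0707 CPM per kb. In 5xFAD hippocampus Ch25h and Lpl stood next to Npc2, at 87.4 ± 26.5 and 78.7 ± 29.5 CPM per kb (SD, n = 3), followed by Abcg1 at 50.2 ± 5.94. Ch25h and Lpl, and Lpl and Abcg1, differed by less than their summed SD. The union counts all annotated exons, 1387 bases for Ch25h and 10478 for Lpl, so the order between genes also depends on the annotation.

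**Figure D1:**
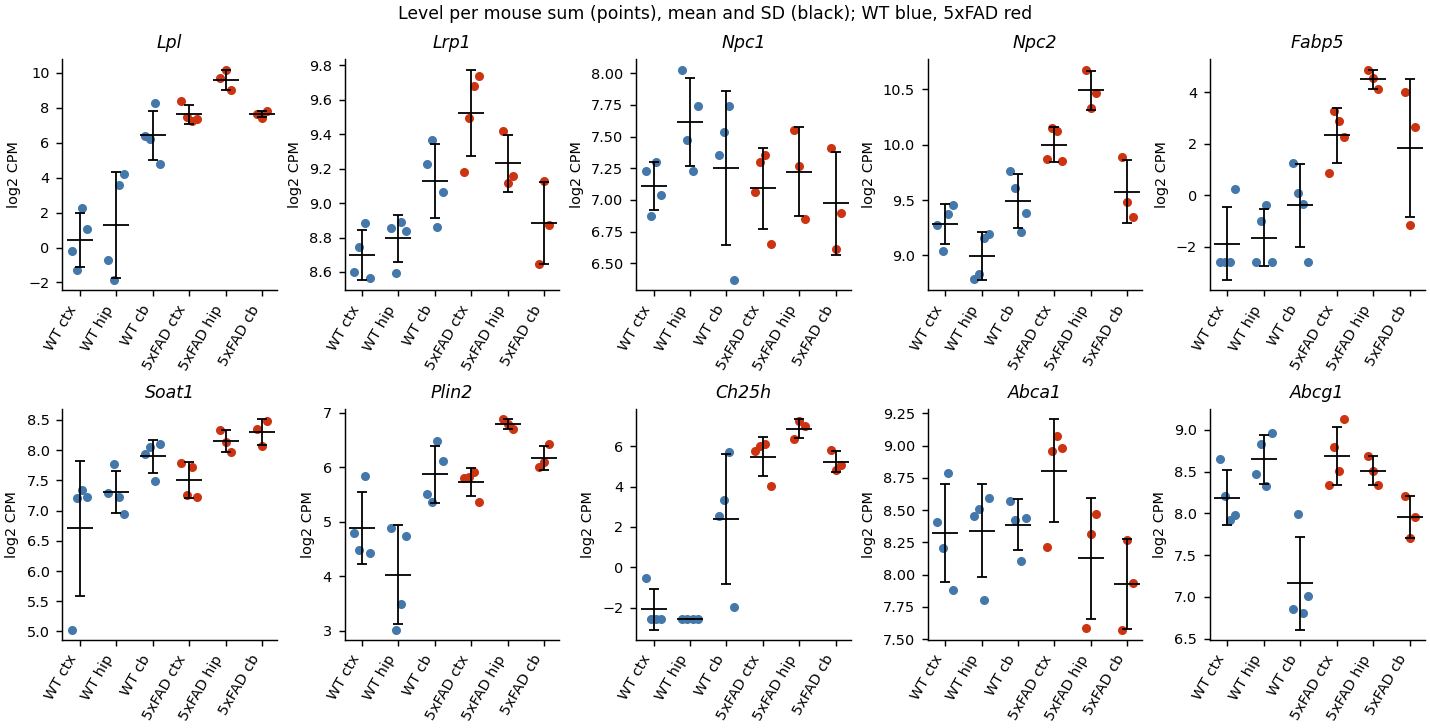
Level of each of the 10 genes (vertical axis, log2 CPM of the mouse sums with a prior count of 2) in the 6 groups (horizontal axis; ctx, cortex; hip, hippocampus; cb, cerebellum). Points are mice, black bars the mean and SD; Lpl and Ch25h lie lowest in WT cortex and WT hippocampus, with the mean of WT cerebellum between these and the 5xFAD groups, whereas Npc1 overlaps across all groups. Vertical scales differ between panels.

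All 10 genes passed the filter on low counts and entered 1 edgeR quasi-likelihood fit over 17358 genes, with Benjamini-Hochberg adjustment over all of them and a threshold of 0.05. Between 5xFAD and WT cortex 4 members rose and 0 fell (Lpl, Lrp1, Npc2 and Ch25h), where 0.294% of all genes tested passed. In hippocampus 4 rose and 0 fell (Lpl, Npc2, Plin2 and Ch25h), where 1.01% passed. In cerebellum 0 of 10 passed, where 0.0461% of all genes did. At an unadjusted p under 0.05 the member counts were 5, 7 and 1 of 10, beside 2039, 2273 and 1549 of the 17358 genes, so the cerebellar count was near the background. The median log2 fold change of the 10 was 0.72 in cortex, 1.16 in hippocampus and 0.32 in cerebellum, beside -0.09, 0.10 and -0.01 over all genes. Mouse values of the genotypes did not overlap for 5, 7 and 0 members, where 5.71%, 11% and 6.56% of all genes did not overlap. Because the members were chosen with earlier results of these data known, the shares over all genes give a scale and no test of the set.

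**Figure D2:**
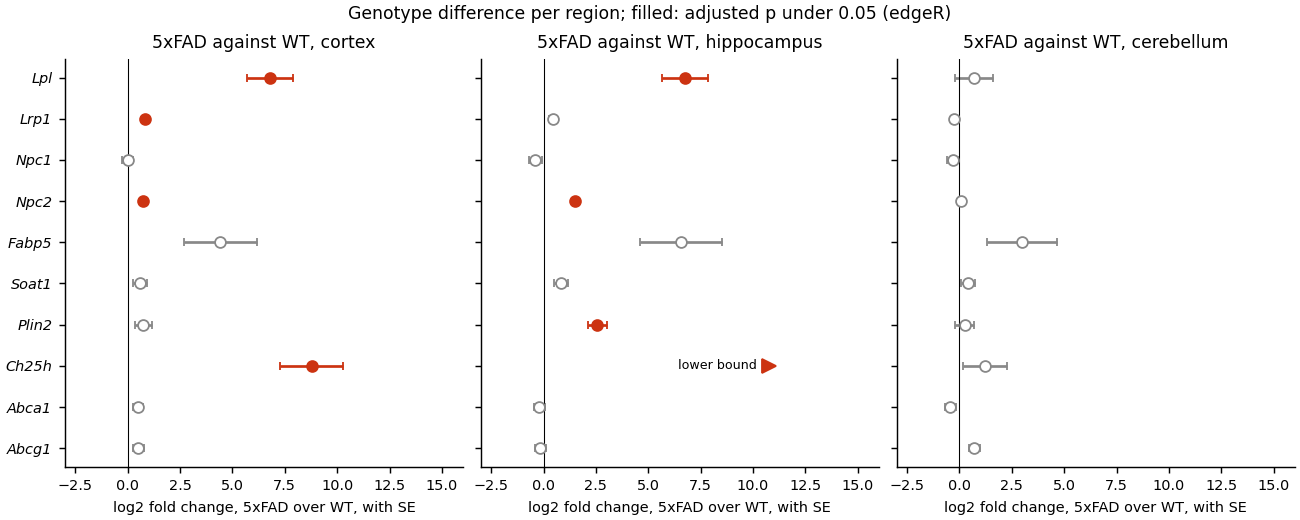
Log2 fold change of 5xFAD over WT (horizontal axis, with its SE) for the 10 genes in cortex, hippocampus and cerebellum; filled points passed an adjusted p of 0.05 (edgeR). The triangle for Ch25h in hippocampus is a lower bound with WT hippocampus, which had 0 reads, set to 3 reads. No point is filled in cerebellum.

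Lpl (chromosome 8, 68880491 to 68907448, plus strand) had almost no reads in WT cortex and WT hippocampus and over 100 CPM in every 5xFAD mouse. The 4 WT cortex mice had 0.689, 0.241, 4.62 and 1.91 CPM, and the 4 5xFAD cortex mice 340.0, 181, 149 and 165 CPM. In hippocampus the WT mice had 0.444, 0.109, 11.6 and 17.98 CPM and the 5xFAD mice 821, 1135 and 517 CPM. The genotypes did not overlap in either region, and every 5xFAD hippocampus mouse lay above every 5xFAD cortex mouse. Log2 fold changes were 6.79 ± 1.10 (SE) in cortex and 6.76 ± 1.08 in hippocampus (edgeR, adjusted p = 0.00346 and 0.00108). With limma-voom in place of edgeR and the mouse as a block shared by its regions, the cortical call was lost (7.34 ± 2.45, adjusted p = 0.278). Tool and block changed together there.

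WT cerebellum did not share the near absence of Lpl. Its mice had 84.2, 74.9, 305 and 27.7 CPM, all above the 8 cortical and hippocampal WT mice, and the 5xFAD cerebellum mice had 200, 173 and 223 CPM. The cerebellar genotypes overlapped, and the log2 fold change was 0.69 ± 0.89 (edgeR, adjusted p = 0.93). The difference of the genotype effects between hippocampus and cerebellum was 6.06 ± 1.38 on the log2 scale and missed the threshold (adjusted p = 0.0654), as did that between cortex and cerebellum (6.10 ± 1.39, adjusted p = 0.15). The latter passed with DESeq2 (adjusted p = 0.00367), no filter on low counts (1.84e-32), only the groups compared (0.0466) and thinned cells (0.0046). Over the alternatives of the hippocampal difference, the adjusted p ran from 8.43e-32 to 0.24, and with the mouse as a block it was 0.0196. Without WT hippocampus mouse 4 or WT cerebellum mouse 4 it was 0.0365 and 0.0387.

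The share of cells with a Lpl read moved with the level. It was 5.39% in WT cortex, 6.59% in WT hippocampus and 12.3% in WT cerebellum, against 24.6%, 50.6% and 27.5% in the same regions of 5xFAD mice. Thinned to 50000 reads per cell, the shares were 0.752%, 3.95% and 10.9% in WT and 22.7%, 41.5% and 23% in 5xFAD. Among cells with a read, the median was 54.4 CPM in WT cortex, 22.7 in WT hippocampus and 564 in WT cerebellum, against 417, 478 and 318 CPM in 5xFAD cortex, hippocampus and cerebellum. Cells with a read were fewer in WT than in 5xFAD cerebellum, and their median level was not lower. Single cells weighed heavily on the WT sums. In each WT cortex mouse 1 cell held 88.2% to 100% of the Lpl reads. The range was 50% to 100% in WT hippocampus and 35.9% to 62.7% in WT cerebellum. In 5xFAD mice it was 28.8% to 32.5% in cortex, 29.2% to 36.3% in hippocampus and 23.5% to 38.8% in cerebellum.

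Lrp1 (chromosome 10, 127538161 to 127621148, minus strand) was read in most cells of every group, from 83.3% in WT cerebellum to 95.1% in 5xFAD cortex. In cortex the WT mice had 389, 429, 473 and 379 CPM and the 5xFAD mice 579, 722, 819 and 854 CPM. These groups did not overlap, and the log2 fold change was 0.83 ± 0.15 (edgeR, adjusted p = 0.0102). The call was lost without 5xFAD mouse 4 (adjusted p = 0.0537). In hippocampus 387 to 475 CPM in WT stood beside 555, 570 and 684 CPM in 5xFAD, without overlap but with an adjusted p of 0.297 (0.44 ± 0.16). In cerebellum 466 to 660 CPM in WT overlapped with 401 to 559 CPM in 5xFAD.

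Npc1, the membrane protein of lysosomal cholesterol exit, did not pass in any of the 11 comparisons made. Its mice lay between 82.5 CPM in WT cerebellum and 261 CPM in WT hippocampus, and the WT and 5xFAD ranges overlapped in each region. Log2 fold changes of 5xFAD over WT were 0.00 ± 0.27, -0.40 ± 0.29 and -0.32 ± 0.29 in cortex, hippocampus and cerebellum (edgeR, adjusted p = 1.00, 0.642 and 0.85). A read was found in 54.9% to 75.8% of the cells of a group.

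Npc2 (chromosome 12, 84754562 to 84773152, minus strand), the soluble partner that passes cholesterol to NPC1, did change. WT hippocampus had 440, 456, 570 and 587 CPM and 5xFAD hippocampus 1641, 1289.5 and 1414 CPM. The lowest 5xFAD mouse stood above all WT mice of the 3 regions, and the log2 fold change was 1.5 ± 0.16 (edgeR, adjusted p = 1.04e-05). In cortex 620, 525, 662 and 701 CPM in WT stood against 936, 1136, 1113 and 926 CPM in 5xFAD, without overlap (0.71 ± 0.15, adjusted p = 0.0403). This cortical call was lost without any one of the 8 mice (adjusted p 0.0536 to 0.154) and with the mouse as a block in limma-voom (0.175). In cerebellum 593 to 870.5 CPM in WT overlapped with 652 to 951 CPM in 5xFAD (0.09 ± 0.16, adjusted p = 0.973).

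Npc2 was one of 2 members whose genotype effect itself differed between regions. The effect was larger in hippocampus than in cerebellum by 1.41 ± 0.23 on the log2 scale (edgeR, adjusted p = 0.00488), where 0.300% of all genes passed. It passed without any one of the 14 mouse sums concerned, and it was lost with no subtraction between wells (adjusted p = 0.0716) and with limma on cell means (0.59 ± 0.60, adjusted p = 0.793). That last setting takes the mean over cells of log2(CPM + 1), so its values are on another scale than the edgeR fold changes. Within their shared plate, 5xFAD hippocampus was above 5xFAD cerebellum by 0.91 ± 0.18 (edgeR, adjusted p = 0.0234), the 1 member of 10 that passed where 0.219% of all genes did. Mice are shared between these regions, and with the mouse as a block the adjusted p was 0.0781. The call was also lost with only the groups compared (adjusted p = 0.279), with no subtraction between wells (0.65, adjusted p = 1.0) and with limma on cell means (0.84, adjusted p = 0.698). It was lost without 5 of the 6 sums (adjusted p 0.0532 to 0.28), 5xFAD cerebellum mouse 1 being the exception. The share of cells with a Npc2 read was high throughout, 82.7% to 93.5%. The median over all cells was 399 CPM in WT and 849 CPM in 5xFAD hippocampus.

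Fabp5 (chromosome 3, 10012548 to 10016607, plus strand) was rare in WT cells. Of the 4 WT cortex mice 3 had 0 reads and 1 had 1.01 CPM, and the WT hippocampus mice had 0, 0.327, 0.599 and 0 CPM. 5xFAD hippocampus had 28.7, 23.02 and 17 CPM and 5xFAD cortex 1.67, 9.54, 7.24 and 4.58 CPM. Both pairs of groups were apart, yet the adjusted p was 0.164 in hippocampus (6.56 ± 1.955) and 0.392 in cortex (4.41 ± 1.75; edgeR). In hippocampus it passed under 4 of 10 alternatives, among them DESeq2 (adjusted p = 0.000866), the mouse as a block in limma-voom (0.000791) and thinned cells (0.0285). Cells with a read were 1.10% in WT and 22.1% in 5xFAD hippocampus, and 0.565% and 20.7% after thinning. In 5xFAD cerebellum the mice ranged from 0.277 to 15.9 CPM.

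Soat1 (chromosome 1, 156424525 to 156474331, minus strand) did not pass in any of the 11 comparisons. In hippocampus 156, 219, 149 and 123 CPM in WT stood beside 323, 282 and 252 CPM in 5xFAD, without overlap (0.82 ± 0.34, edgeR adjusted p = 0.338). In cortex WT mouse 1 stood far below the others, at 32.5 CPM against 149 to 163 CPM, and the 5xFAD mice had 150 to 222 CPM. The share of cells with a read was 35.3%, 39.6% and 49.4% in WT cortex, hippocampus and cerebellum and 54.6%, 61.0% and 59.1% in 5xFAD. After thinning the same shares were 36.1%, 33.3% and 42.3% against 46.5%, 54.8% and 50.8%.

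Plin2 (chromosome 4, 86648386 to 86670060, minus strand) rose in hippocampus alone of the 3 regions, although the regional difference itself did not pass in edgeR. WT hippocampus had 29.2, 7.96, 11.1 and 26.4 CPM and 5xFAD hippocampus 118, 110 and 104 CPM. The 5xFAD mice lay close together and above all other sums, and the log2 fold change was 2.57 ± 0.45 (edgeR, adjusted p = 0.00256). In cortex 27.7, 22.1, 57.4 and 21.4 CPM in WT overlapped with 55.9, 56.5, 60.4 and 40.9 CPM in 5xFAD (0.73 ± 0.41, adjusted p = 0.499). In cerebellum 41.0 to 89.1 CPM in WT overlapped with 64.1 to 85.7 CPM in 5xFAD. The hippocampal effect exceeded the cerebellar by 2.32 ± 0.63 (adjusted p = 0.157; DESeq2 0.00544) and the cortical by 1.84 ± 0.60 (adjusted p = 0.248). Cells with a read were 8.79% in WT and 27.3% in 5xFAD hippocampus, while the median of these cells was 207 and 278 CPM.

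Ch25h (chromosome 19, 34473778 to 34475164, minus strand), a gene of 1387 exon bases, had 0 reads in all 4 WT hippocampus mice. In 182 WT hippocampus cells, 0 with a read allows a share of up to 1.65% by 3 counts of the total, and up to 2.01% by the 95% exact binomial interval. The 5xFAD hippocampus mice had 81.2, 153 and 129 CPM from 5424 reads (adjusted p = 0.000382, edgeR). With WT set to 3 reads over the group the ratio was 1752, and the 95% exact counting interval began at 1424. In cortex 1 WT cell held the 3 WT reads, and the 5xFAD mice had 55.1, 64.5, 68.5 and 16.4 CPM. That ratio was 502 (95% exact counting interval 171 to 2434; edgeR adjusted p = 0.00898), and without wells holding markers of another cell type the adjusted p was 0.0935 at a log2 fold change of 8.75, from 8.77. Smart-seq2 reads of 1 molecule are not independent, so these intervals and floors cover counting error only. Cells with a read were 28.6% in 5xFAD hippocampus (95% exact binomial interval 21.6% to 36.4%), 9.84% in 5xFAD cortex and 10.4% in 5xFAD cerebellum. After thinning they were 29.6%, 9.30% and 8.02%.

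WT cerebellum held Ch25h in 6 of 162 cells. Its 4 mice had 5.58, 9.93, 51.7 and 0.0869 CPM, and in each of them 1 cell held at least 99.2% of the reads. The 5xFAD cerebellum mice had 57.2, 28.5 and 33.1 CPM, overlapping with WT (1.23 ± 1.05, edgeR adjusted p = 0.826). The Ch25h effect differed between hippocampus and cerebellum (edgeR, adjusted p = 0.0193), and its call was lost without wells holding markers of another cell type (adjusted p = 0.136, at 12.09 on the log2 scale from 12.27) and without any one of 5xFAD hippocampus mouse 2 or 5xFAD cerebellum mouse 2 or 3 (adjusted p 0.0514 to 0.094). Between cortex and cerebellum 0 of 10 members passed (0.0807% of all genes did; edgeR), and 0 of 10 between hippocampus and cortex (0.0461% of all genes). At an unadjusted p under 0.05 these counts were 5 and 2 of 10, beside 1709 and 1976 of the 17358 genes. Between cortex and cerebellum Ch25h passed without WT cerebellum mouse 4 (adjusted p = 0.0297), and Lrp1 without 5xFAD cortex mouse 1 (0.0288).

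**Figure D3:**
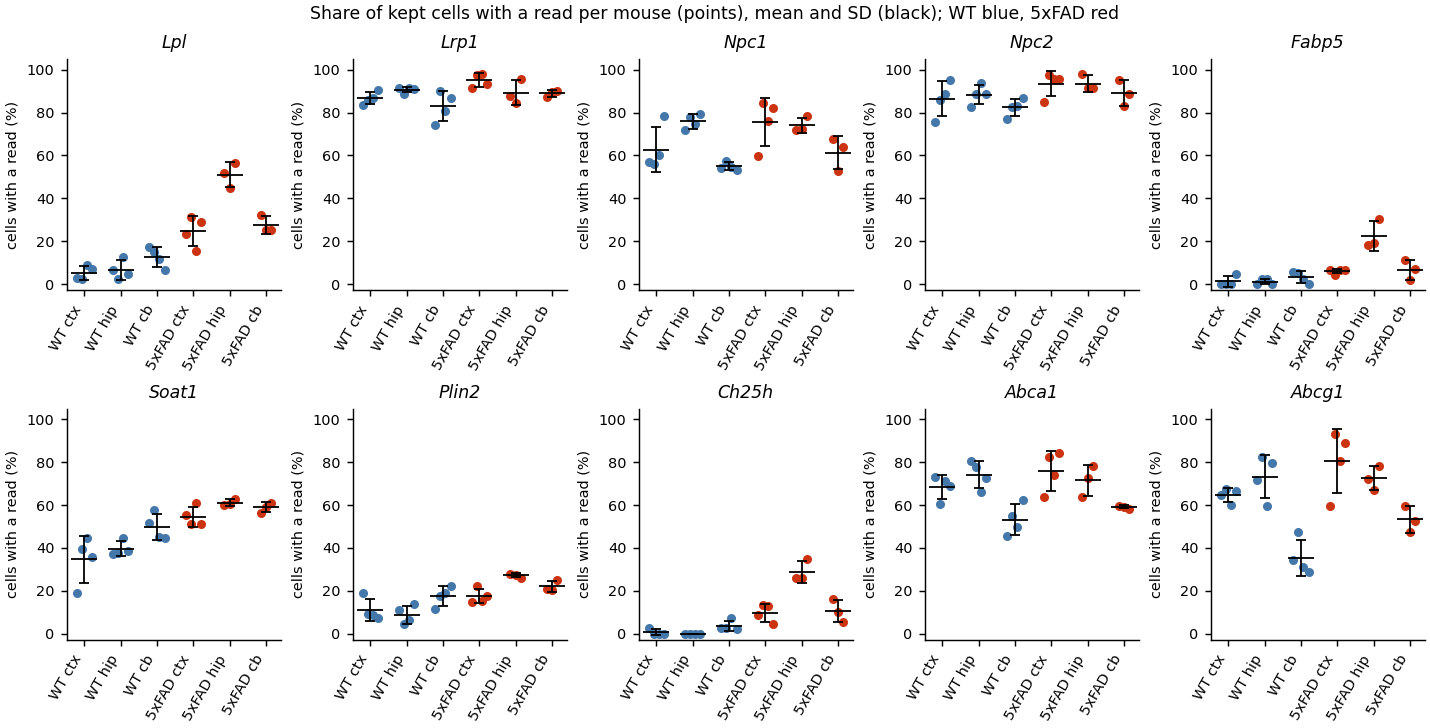
Share of kept cells with at least 1 read of each gene (vertical axis, percent) in the 6 groups (horizontal axis, abbreviated as for the levels). Points are mice, black bars the mean and SD; Lpl, Ch25h, Fabp5 and Plin2 are highest in 5xFAD hippocampus, and Abcg1 is lowest in WT cerebellum.

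Neither exporter passed between the genotypes in any region. Abca1 (chromosome 4, 53030787 to 53159895, minus strand) did not pass in any of the 11 comparisons. Its cortical mice had 236 to 443 CPM in WT and 297, 498, 538 and 505 CPM in 5xFAD (0.49 ± 0.24, edgeR adjusted p = 0.433). In hippocampus 223 to 387 CPM in WT overlapped with 192 to 355 CPM in 5xFAD, and in cerebellum 276 to 381 CPM overlapped with 190.5 to 309 CPM. The log2 fold changes there were -0.20 ± 0.26 and -0.44 ± 0.26.

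Abcg1 (chromosome 17, 31057675 to 31117988, plus strand) had its lowest mean level in WT cerebellum. WT hippocampus had 355, 456, 322 and 496 CPM, WT cortex 401, 294, 243 and 252 CPM, and WT cerebellum 116, 254, 112 and 128 CPM. A read was found in 73.1%, 64.7% and 35.2% of the cells of these groups, and in 72.9%, 73.7% and 36.5% after thinning. 5xFAD over WT gave log2 fold changes of 0.50 ± 0.25 in cortex, -0.15 ± 0.27 in hippocampus and 0.72 ± 0.27 in cerebellum (edgeR, adjusted p = 0.436, 0.922 and 0.552). On the plate they share, 5xFAD cortex was above WT cerebellum by 1.47 ± 0.25 (edgeR, adjusted p = 0.00801), the 1 member of 10 that passed where 0.259% of all genes did. Genotype and region differ together in that pair. Lpl, Ch25h and Npc2, which rose in 5xFAD cortex against WT cortex on another plate, had 0.76 ± 0.83, 1.60 ± 1.00 and 0.50 ± 0.15 against WT cerebellum (adjusted p = 0.852, 0.592 and 0.334).

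Regions of WT mice were compared with each other, those with cerebellum by a choice made after the levels above had been seen. Between hippocampus and cortex, both on the same plate, 0 of 10 members and 0% of all genes passed (edgeR). At an unadjusted p under 0.05 there were 1 member and 1827 genes, and DESeq2 called 301 genes. Cerebellum, on another plate, was above cortex for Lpl (6.03 ± 1.07, adjusted p = 0.00817) and Ch25h (adjusted p = 0.0315), 2 of 10 where 0.277% of all genes passed. With limma on cell means both were lost (Lpl 0.70, adjusted p = 0.231, and Ch25h 0.19, adjusted p = 0.789). Values of that setting are means of log2(CPM + 1) over cells and cannot be set against the edgeR fold changes in size. The mouse values of 2 members, Lpl and Soat1, were apart, as for 4.64% of all genes, and those of Ch25h overlapped. Against hippocampus, Ch25h was higher (at least 238-fold, adjusted p = 0.00826) and Abcg1 lower (-1.42 ± 0.25, adjusted p = 0.00925), where 0.374% of all genes passed, and Lpl had 4.01 ± 0.94 (adjusted p = 0.0676). With limma on cell means Ch25h had 0.23 (adjusted p = 0.716). The mouse values were apart for 5 members, as for 4.96% of all genes.

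Border macrophage wells stood beside these regional differences. All 7 of their markers had reads in WT cerebellum, with a summed level of 7.78 to 649 CPM per mouse, 6 of 7 in WT cortex (1.91 to 291 CPM; Cbr2 at 0) and 6 of 7 in WT hippocampus (0 to 311 CPM; Lyve1 at 0). Without the wells holding markers of another cell type, 12.1% of WT cerebellum cells still had a Lpl read and 34.2% an Abcg1 read. Ch25h then lost both calls (adjusted p = 0.223 against cortex and 0.109 against hippocampus), while its log2 fold changes were about as large (6.79 from 7.17 and 10.24 from 10.65, sizes that depend on the prior count). With the mouse as a block Ch25h lost the call against cortex (adjusted p = 0.0596). That call was also lost without WT cerebellum mouse 3 (adjusted p = 0.0877) and without WT cortex mouse 2, 3 or 4 (0.118 to 0.143). Lpl against hippocampus passed with the mouse as a block (5.07 ± 0.92, adjusted p = 0.023) and without WT cerebellum mouse 4 (0.0384). Abcg1 passed against cortex without WT cerebellum mouse 2 (-1.33 ± 0.23, adjusted p = 0.0103). In 5xFAD mice the summed border macrophage level was 270.5 to 538.5 CPM in cerebellum, 3.86 to 7.92 in hippocampus and 1.99 to 41.2 in cortex. The part of these wells in the regional differences was not tested beyond leaving them out.

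Reads of 2 members in the same cell were counted, first in the 5xFAD groups. In 5xFAD hippocampus 37 of the 44 cells with Ch25h reads also had Lpl reads (84.1%), while 50.6% of all cells there did, and by mouse it was 12 of 13, 13 of 15 and 12 of 16. In 5xFAD cortex 13 of 18 Ch25h cells (72.2%) had Lpl, against 24.6% of all cells, and in 5xFAD cerebellum 9 of 20 (45.0%), against 27.5%. Spearman's rho of Lpl and Ch25h was 0.48 over 135 thinned cells in hippocampus, 0.37 over 172 in cortex and 0.14 over 187 in cerebellum. Lpl and Plin2 had 0.28, 0.33 and 0.10, and Lpl and Npc2 0.32, 0.24 and 0.22, in the same order. Fabp5 and Plin2 had 0.18, 0.03 and -0.02. The pair Abca1 and Abcg1 had 0.17, 0.31 and 0.34, while Abca1 and Ch25h had -0.15, -0.09 and -0.02. In WT cerebellum Lpl and Ch25h had 0.22 over 137 thinned cells, with Ch25h read in 6 of 162 cells before thinning. Lpl and Plin2 had 0.20 there, and Lpl and Npc2 -0.05. In WT cortex and WT hippocampus Ch25h was read in 1 and 0 cells. Cells of a mouse are not replicates and, within a region, share a plate, so these are descriptions.

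**Figure D4:**
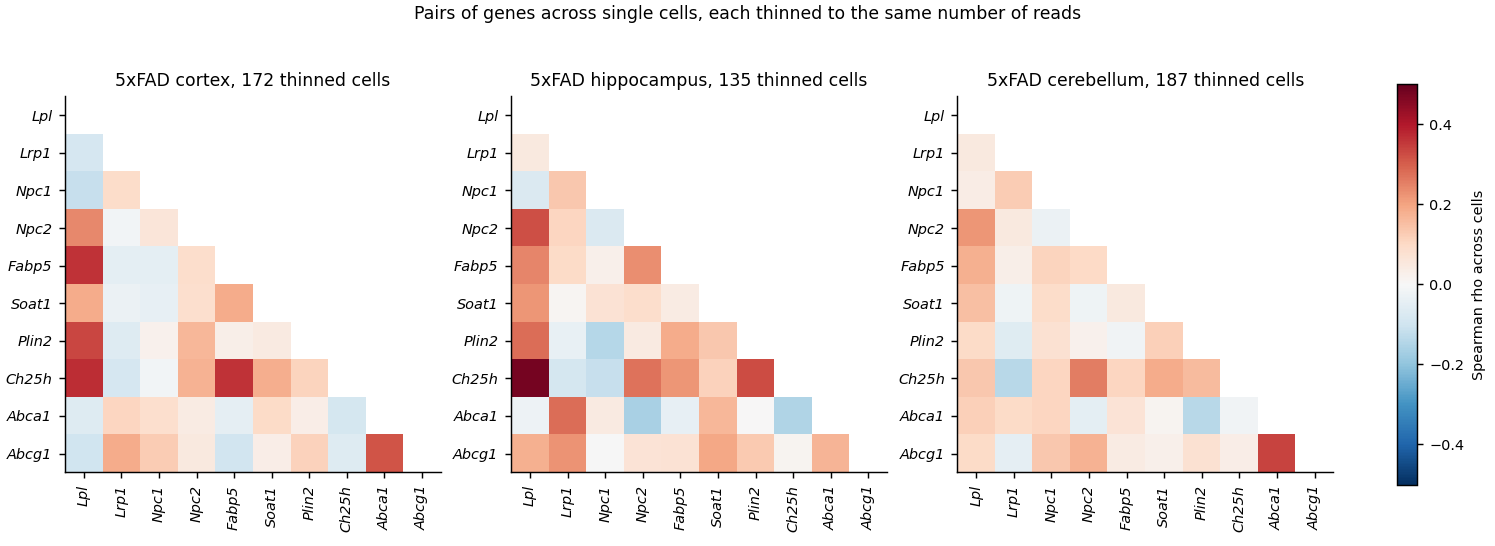
Spearman's rho (colour) for each pair of the 10 genes across single cells of the 5xFAD groups, each cell thinned to 50000 reads; rows and columns are genes. The highest value is that of Lpl and Ch25h in hippocampus (0.48), and Abca1 with Ch25h lies below 0 in all 3 regions.

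The 4 members read in under 20% of the cells of every WT group, Lpl, Ch25h, Plin2 and Fabp5, were counted together per cell, a choice made after their values were seen. At least 2 of the 4 were read in 37.7% of 5xFAD hippocampus cells, 31.0% to 45.7% by mouse, and all 4 in 9 of 154 cells. In 5xFAD cortex and cerebellum it was 14.2% and 13.5% of cells. In WT cortex, hippocampus and cerebellum it was 0.599%, 0.549% and 6.79%. After thinning the shares were 34.1%, 14.5% and 11.8% in 5xFAD hippocampus, cortex and cerebellum, and 5.84% in WT cerebellum. None of the 4 was read in 35.1% of 5xFAD hippocampus cells and in 84.1% of WT hippocampus cells.

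**Figure D5:**
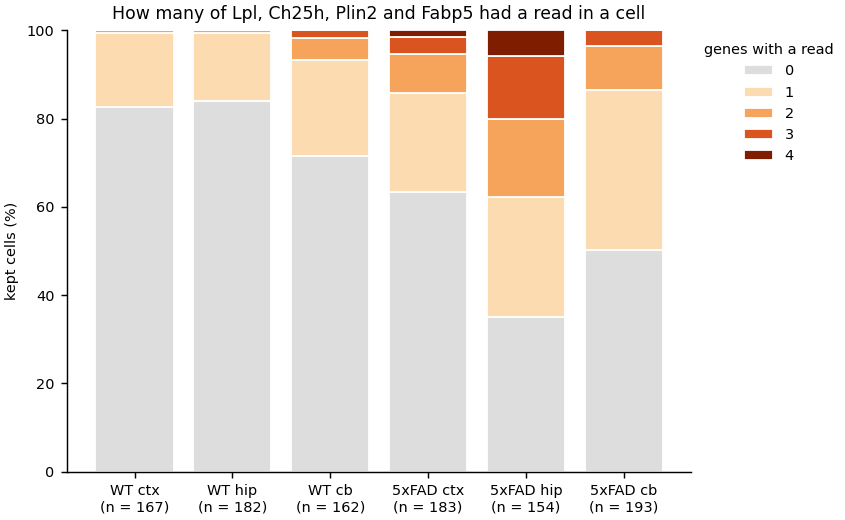
Share of kept cells (vertical axis, percent) with reads of 0 to 4 of Lpl, Ch25h, Plin2 and Fabp5 (colour) in the 6 groups (horizontal axis, abbreviated as for the levels, with the number of cells). Cells with 2 or more make up 37.7% of 5xFAD hippocampus and 0.549% of WT hippocampus.

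Among 6308 well-expressed genes (6309 for Ch25h), those whose level over the 22 sums was most like a member were found by Pearson's r of log2 CPM. The sums fall into 6 groups, so r mostly follows group means and is given with no test. For Lpl these were Dgkz (0.91), Ftl1 (0.89) and Clec7a (0.89), a pattern receptor of plaque-associated microglia. For Npc2 they were the cathepsin genes Ctsb (0.92) and Ctsz (0.92) and the tetraspanin gene Cd63 (0.90). For Ch25h they were H2-D1 (0.91), Lpl (0.89) and Lgals3bp (0.89), and for Plin2 Sdc3 (0.88), H2-D1 (0.83) and Lpl (0.81). Lrp1 had lower values, with Mdh2 (0.76), Arl11 (0.74) and Eef2 (0.74).

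The pathway lists hold the members along with other genes, so their counts repeat the member calls. Over all genes tested, 0.294% passed in cortex, 1.01% in hippocampus and 0.0461% in cerebellum. The median log2 fold changes over all genes were -0.09, 0.10 and -0.01. Like the members, the lists were chosen with earlier results of these data known. Of 14 tested genes of lipoproteins and uptake, 2 rose in cortex and 3 in hippocampus, and 0 fell (median log2 fold change 0.72 and 1.14). Besides Lpl these were Lrp1 in cortex and, in hippocampus, Apoe (5.08 ± 1.00, edgeR adjusted p = 0.00838), the main apolipoprotein of the brain, and Lrpap1 (1.03 ± 0.25, adjusted p = 0.0455), which chaperones LRP1. Of 13 genes of lysosomal sterol exit, 1 rose in cortex and 3 in hippocampus (median 0.21 and 0.44), Npc2 in both and, in hippocampus, the lysosomal membrane genes Lamp1 (0.70 ± 0.10, adjusted p = 0.000451) and Lamp2 (0.76 ± 0.15, adjusted p = 0.00823). Of 20 genes of esters, droplets and fatty acid carriers, 1 rose in cortex and 2 in hippocampus (median 0.45 and 0.56). These were Cd9 in both (0.61 ± 0.13 and 0.88 ± 0.14, adjusted p = 0.0356 and 0.000709), a tetraspanin gene, and Plin2 in hippocampus.

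Of 17 genes of sterol export, LXR signalling and oxysterols, Ch25h alone rose in cortex and in hippocampus, and the median was 0.10 and -0.15. Scd2, a fatty acid desaturase gene, had 1.49 ± 0.53 (edgeR, adjusted p = 0.274). Of 23 genes of cholesterol synthesis 0 passed in cortex, hippocampus or cerebellum (median 0.25, 0.48 and -0.01). Srebf2, the regulator of that pathway, had 1.41 ± 0.53 in hippocampus (edgeR, adjusted p = 0.307). In cerebellum 0 genes of the 5 lists passed.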

How the data were processed

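Read counts per gene and well were deposited by the authors as 1 table. The submitters' processing notes name STAR 2.5.2b, the GRCm38 build and featureCounts 1.5.1; the annotation is not given in the sources used here. Wells of plate columns 1 and 2 held the summed reads of wells 10 to 19 and 20 to 24 of their plate row as well, and these were subtracted in 96 columns, with 0 negative values. Cells with at least 500 genes, 10000 gene reads and at most 20% mitochondrial reads were kept, and counts were summed per mouse and region. The sums were fitted with edgeR 4.0.16 (R 4.3.3, TMM, filterByExpr), tested on simulated data, with limma 3.58.1 and DESeq2 1.42.0 as alternatives. An SE is the log2 fold change over the root of F. Log2 CPM used a prior count of 2. Positions and exon lengths are from GENCODE M21.

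The replicate number was taken as the mouse within a genotype, since the series says that regions came from the same mice. Deviations of same-numbered sums from their group means had correlations of -0.0368 to 0.0343 over 21 pairs. Named genes were the 10 members, the 3 genes most like each member that passed a genotype test (mean log2 CPM of at least 4), and, of 5 pathway lists, genes that passed and the 2 with the smallest p in hippocampus. The result for 1 gene named by this rule is not reported here. Members and lists were chosen with earlier results of these data known, and the comparisons of WT cerebellum with the other WT regions were added after levels were seen. Alternatives were another tool, scaling, filter, block, fit, well correction, depth per cell, choice of cells, and leaving out each mouse.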

Additional observations from a re-analysis of the deposited data

Results flagged for a closer look

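In 40 groups of 4 mice tested, 1 mouse stood apart from the other 3 in 6 cases, and chance gives this in about 1 in 20 groups. Lpl in 5xFAD cortex was 340.0 CPM in mouse 1 and 148.5 to 181 CPM in the others. Abca1 was 297 CPM in the same mouse and 498 to 538 CPM in the others. Soat1 in WT cortex was 32.5 CPM in mouse 1 against 149 to 163 CPM. Abcg1 in WT cerebellum was 254 CPM in mouse 2 against 112 to 128 CPM. In WT cortex, Fabp5 was read only in mouse 4 (1.01 CPM) and Ch25h only in mouse 1 (0.516 CPM). With 0 reads in the other 3 mice any read sets a mouse apart, so the rate of 1 in 20 does not apply to these cases.

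The genotype effect differed between hippocampus and cerebellum, by edgeR's test of the difference itself, for Npc2 (1.41 on the log2 scale) and Ch25h (12.27, a size that depends on the prior count because WT hippocampus had 0 reads).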

How the results depend on the processing

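Lpl, Plin2 and Ch25h stayed past the threshold for genotype in hippocampus in all 10 alternative settings and without any one of 7 mouse sums. Counts over all genes moved more. Genotype called 51 genes in cortex, 176 in hippocampus and 8 in cerebellum, against 473, 748 and 324 with DESeq2 and 190, 327 and 98 with no filter on low counts. Hippocampus against cerebellum in 5xFAD called 38, hippocampus against cortex in WT 0, and 5xFAD cortex against WT cerebellum 45, against 349, 301 and 437 with DESeq2 and 107, 43 and 154 with no filter. The differences of genotype effects called 52 (hippocampus minus cerebellum), 14 (cortex minus cerebellum) and 8 (hippocampus minus cortex), against 534, 359 and 363 with DESeq2 and 186, 95 and 76 with no filter. WT cerebellum against cortex and hippocampus called 48 and 65, against 562 and 716 with DESeq2 and 215 and 233 with no filter. In the same order of comparisons, fitting only the groups compared gave 25 for genotype in cortex, 0 in cerebellum, then 5, 14, 28 and 4 (hippocampus minus cortex), and 13 for each WT cerebellum comparison. limma on cell means gave 476 and 499 for genotype in cortex and hippocampus, 22 for WT hippocampus against cortex, 823 for 5xFAD cortex against WT cerebellum, 99, 3 and 252 for the differences, and 146 and 311 for WT cerebellum. Its Lpl value for hippocampus minus cortex was 2.14 (limma, adjusted p = 0.00174), where edgeR gave -0.04 ± 1.11, which has no clear direction. These values are on unlike scales, and the cause was not tested. The columns as deposited gave 0 for genotype in cerebellum, 5xFAD hippocampus against cerebellum, 5xFAD cortex against WT cerebellum and hippocampus minus cortex, and 18 for hippocampus minus cerebellum. Without plate columns 1 and 2 the counts were 3 (genotype in cerebellum), 28 (5xFAD cortex against WT cerebellum), 7 (cortex minus cerebellum) and 40 (WT cerebellum against hippocampus), and with thinned cells 14 (genotype in cerebellum), 4 (hippocampus minus cortex) and 88 (WT cerebellum against cortex).

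With the mouse as a replicate block, genotype called 362 genes in hippocampus and 66 in cerebellum, WT hippocampus against cortex 5, cortex minus cerebellum 7, and WT cerebellum against cortex 26. For genotype and for 5xFAD cortex against WT cerebellum this setting was limma-voom, so the tool changed along with the block. The other comparisons kept edgeR with a term per mouse. The setting changed no member call other than those given with the results. The consensus correlation within a mouse was -0.00837. Leaving out 1 mouse sum gave 29 to 46 genes for genotype in cortex, 113 to 140 in hippocampus and 1 to 10 in cerebellum. It gave 7 to 38 for 5xFAD hippocampus against cerebellum, 0 to 2 for WT hippocampus against cortex and 22 to 40 for 5xFAD cortex against WT cerebellum. For the differences it gave 18 to 64, 8 to 15 and 0 to 12, and for WT cerebellum against cortex and hippocampus 32 to 54 and 39 to 76. Abcg1 lost its calls with only the groups compared and without the subtraction between wells (adjusted p 0.14 to 0.595). With only the groups compared, member calls lost, besides those given with the results, were Lrp1 (adjusted p = 0.0652) and Npc2 (0.0677) in cortex, Ch25h in hippocampus minus cerebellum (0.0859) and Lpl in WT cerebellum against cortex (0.0927). Npc2 in hippocampus was lost with limma on cell means (0.0625), and Npc2 in cortex with RLE size factors (0.079), no subtraction (0.0636) and thinned cells (0.0542). Without 1 mouse, 1013 of 1040 member values kept their side of the threshold, 6 gained a call and 21 lost one. Of values called with or without the mouse, 0 changed direction. Directions of values without a call were not compared.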
